A study of Bos taurus with 2 samples.

Results

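The genes described here are the cyclins (CCN names), the cyclin-dependent kinases and their inhibitors and binding proteins (CDK names), the cell division cycle genes (CDC names) and the minichromosome maintenance genes (MCM names) that the bovine array lists. They were chosen by gene name alone, as every non-control probe whose name begins with CCN and a letter, CDK and a digit or N, CDC and a digit, or MCM and a digit. This gave 226 spots, 218 probes and 100 gene names of the 32428 on the array. A name stands for a gene, and the ARS-UCD2.0 gene table knows all 100 of them, 99 as a current symbol and the remaining 1 as a synonym. MCM2, CCNB3 and CDKN2A were not found by name and were not analysed here, nor was CCNYL1, whose probe is listed under a transcript identifier.

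RNA came from the testes of 3 crossbred bulls, Holstein Friesian crosses carrying 50 to 75% exotic inheritance, and of 3 Zebu bulls of the Tharparkar breed, all aged 24 months. Within each breed group the RNA was pooled, labelled with Cy3 and hybridized to 1 Agilent array of 60-base probes, and both arrays lay on the same slide. With 1 array per group no difference has a replicate check and none has a p-value, and precision is limited by how few arrays there are. Because the RNA came from whole tissue, fewer cells of a type and less RNA per cell cannot be told apart.

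Cyclins are proteins whose abundance oscillates through the cell cycle and which switch on the cyclin-dependent kinases (CDKs), while CDK inhibitors hold these kinases back. The CDC25 phosphatases remove inhibitory phosphates from CDKs, the anaphase-promoting complex destroys cyclins at the end of division, and the MCM proteins form the helicase that is loaded on DNA before replication. In the testis the same machinery runs the mitotic divisions of spermatogonia and the meiotic divisions of spermatocytes, whereas several relatives (cyclins C, H, K, L and T with their kinases) act in transcription, and CDC42 is a small GTPase of the cytoskeleton.

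A level is the log2 of the background-subtracted signal relative to the 75th percentile of its own array, and a difference is the crossbred level minus the Zebu level. A probe was detected where the scanner software marked it well above background on at least 1 array. A gene with several probes takes the value of the one with the highest mean level over both arrays. Genes whose measured difference reached 1.5 in size, a fold of 2.83, were counted as higher or lower if detected on the brighter array. Where the dimmer array was not well above background, only a lower bound of the fold is given, and the gene enters medians, counts above or below 0 and plots of differences at that bound. Over 5960 probes with several spots, spots of the same probe had an SD of 0.29 on the crossbred and 0.18 on the Zebu array. Combined, these give an SD of 0.34 for a difference, which covers spotting and scanning only. Spots in the patches of unusual signal described below were not left out of it.

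The probes behind the results are shown by the first 30 of their 60 bases, 5′ to 3′, as deposited with the arrays, with positions on HGSC Btau_3.1. First come the probes of the 5 genes that were counted as higher or lower. They lie at chr3:45739156-45739926 on the minus strand for CDC14A, with a gap of genomic sequence inside the alignment, and at chr19:17477606-17477665 on the minus strand for CDK5R1. The CDC34 probes lie at chr7:42303963-42304022 and chr7:42304644-42304703 on the plus strand. The CDK15 probes lie at chr2:95003736-95014858, again with such a gap, and chr2:94933807-94933866 on the plus strand. The CCNI2 probe lies at chr7:20351987-20352046 on the minus strand.
CDC14A: agtgtaagaagcttttccataaactcccgg
CDK5R1: ggctggaccggtgagcccgccagcctgcat
CDC34 probe 1: aggcaccgaagagtcctgacactacatccc
CDC34 probe 2: cgcagccaaggcctccagccaggctttgtc
CDK15 probe 1: accagcttccagatgaggaatcattgttta
CDK15 probe 2: gctttaaaagtcatcagtatgaatgcagag
CCNI2: atgctcatagtgcagcttgctttttcttcc

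The next probes are those of CCNG1, whose 4 probes all lay on the low side, of CDK17, whose probes opposed each other, and of CDK7, for which probe 3 lies in a patch of low signal on the crossbred array. CCNG1 probes 1 to 4 lie on the plus strand at chr7:75280483-75280541, chr7:75280386-75280445, chr7:75279994-75280053 and chr7:75278292-75278351. The CDK17 probes lie on the minus strand at chr5:65171208-65171267 and chr5:65202823-65206524. The CDK7 probes lie on the minus strand at chr20:11041331-11043621, chr20:11043723-11043782 and chr20:11040669-11040728. CDK17 probe 2 and CDK7 probe 1 also have a gap of genomic sequence inside the alignment.
CCNG1 probe 1: gtgttaattttgagttgccagaggtaacct
CCNG1 probe 2: gacccacagtgtatctcatacttggtaaac
CCNG1 probe 3: ctgcctcagtctagtcccatcaagaaaatt
CCNG1 probe 4: tgaaatggattgtttctgggcgtactgcac
CDK17 probe 1: tcaagcccagcccccagcctttcttatcaa
CDK17 probe 2: agcagattagatattgttcatgaaaatcta
CDK7 probe 1: ttcttatttaatccatgtactcgaattaca
CDK7 probe 2: taacaagaatatttgaaactttgggcacac
CDK7 probe 3: ctggacaatattctactactgaaggaaaca

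Both arrays detected 97 of the 100 genes well above background, while CDK15 was so on the crossbred array only, and CCNI2 and MCM9 on the Zebu array only. Most differences were under 1 in size, as they were over all detected names. The median difference was -0.18, against -0.05 over all 24751 detected gene names, and 62 genes lay below 0 and 38 above it. When the detected probes of a gene were averaged instead, both medians were -0.04. Over all detected probes, each taken singly, the median was -0.13 for the members and -0.07 for the whole array. The gap between the members and all names thus depends on how the probes are combined. Over all detected names 46.8% lay above 0. The difference was under 0.5 in size for 48 of the 100 genes (51.6% of all) and under the SD between spots for 36 of them (37.4% of all).

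CDC14A, CDK5R1, CDC34 and CDK15, 4 of the 100 genes, were counted as higher in crossbred testis, where 7.12% of all detected names were. CCNI2 was the 1 gene counted as lower, where 2.92% of all were. Over probes rather than genes, 5 of the 208 detected probes were counted as higher (6.14% of all detected probes) and 6 as lower (2.99% of all). At a difference of 1 the counts were 7 higher and 7 lower, with 12.8% and 8.87% over all names. The shares of members stood below those of the whole array at each of these thresholds, and no test of that gap was made.

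**Figure D1:**
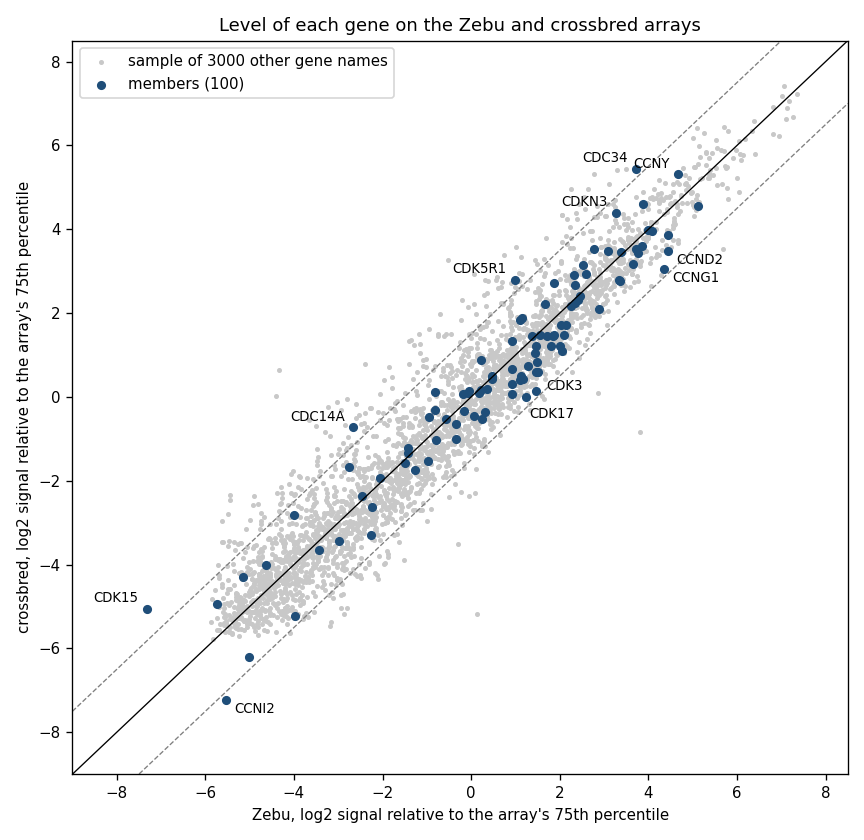
Level of each gene on the Zebu array (x) and on the crossbred array (y), both as log2 signal relative to the array's 75th percentile. Blue points are the 100 members, grey points 3000 other gene names drawn at random from those well above background on both arrays, the solid line is equality and the dashed lines a difference of 1.5. Levels are drawn as measured, so that CDK15, CCNI2 and MCM9, each not well above background on 1 array, stand at signals for which only a bound of the fold holds. Most members follow the line of equality, and CDC14A, CDK5R1 and CDC34 stand above the upper dashed line at signals well above background on both arrays.

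CDC14A, a dual-specificity phosphatase that acts on CDK substrates, had a level of -0.73 in crossbred and -2.67 in Zebu testis, a difference of 1.94 or 3.84-fold. It was read from 1 probe, with a processed signal of 711 against 194. CDK5R1, which encodes the activating subunit of the kinase CDK5, had levels of 2.79 and 0.99, which is 1.80 or 3.48-fold, and also has 1 probe. For neither gene can a second probe be set beside the value.

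CDC34, a ubiquitin-conjugating enzyme that works with ligases that mark CDK inhibitors for destruction, had levels of 5.43 in crossbred and 3.73 in Zebu testis at its brighter probe, a difference of 1.71 or 3.27-fold. Its second probe, on the same chromosome and strand, had 0.64 and 1.60, a difference of -0.96. The probes of CDC34 therefore opposed each other, and its place among the higher genes rests on the brighter one, with a mean of 0.37 over both.

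CDK15, a kinase of the cyclin Y group, was well above background in crossbred testis only, at a level of -5.05, and was at least 1.86-fold higher there. Its other probe was not well above background on either array. CCNI2, a relative of cyclin I, was well above background in Zebu testis only, at a level of -5.53, and was at least 1.19-fold lower in crossbred testis. Both genes lay close to the dimmest signal that counts as well above background, at -5.78 for the crossbred and -5.94 for the Zebu array, and with normexp background correction neither was counted.

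The group plotted as mitotic and meiotic cyclins also holds the D, E, F, G, I and J cyclins. In it 9 of 15 genes lay below 0 and the median difference was -0.22. The A-type and B-type cyclins of germ cell and mitotic division lay mostly above 0. CCNA1, the cyclin A of male meiosis, had levels of 2.71 in crossbred and 1.86 in Zebu testis, which is 0.85 apart, and the second probe gave 0.66. CCNB1 is the partner of CDK1 at entry into division. At its brighter probe it had a processed signal, before scaling, of 4224 in crossbred and 2650 in Zebu testis. Its probes, which overlap by position, differed by 0.74 and 0.76. CCNB2 had levels of 2.91 and 2.32, with 0.59 and 0.38. In contrast CCNA2, the cyclin A of dividing somatic cells, differed by -0.22 and -0.44. The 3 genes CCNA1, CCNB1 and CCNB2 were above the SD between spots at every probe, and none of them reached 1.5.

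The D-type cyclins and the cyclins G lay below 0 at their brightest probes, and the E-type cyclins lay above it. CCND2, a D-type cyclin, had levels of 3.49 in crossbred and 4.44 in Zebu testis, a difference of -0.95 at its only probe. CCND3 differed by -0.73 at its brighter probe and by 0.19 at its dimmer one, and CCND1 by -0.19. Cyclin E, which drives entry into replication, had differences of 0.08 for CCNE1 and of 0.21 for the brighter probe of CCNE2, whose dimmer probe passed 1. The second CCNE1 probe was well above background in Zebu testis only and set no bound. Of the D-type cyclins only CCND2 and CCND3 thus differed by more than the SD between spots at their brighter probes.

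CCNG1, which encodes cyclin G1, lay on the low side at every probe. Its processed signals were 9805 in crossbred and 25080 in Zebu testis at probe 1, 7339 and 19736 at probe 2, 871 and 4206 at probe 3, and 413 and 1298 at probe 4. The differences were -1.29, -1.36, -2.20 and -1.58, so that all 4 lay beyond 1 and 2 of them beyond the threshold. By its brightest probe CCNG1 was not counted as lower, but it was when its probes were averaged. CCNG2 differed by -1.24 at a dim level of -5.22 in crossbred testis, and its other probe was not well above background on either array.

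The kinases of the cell cycle did not share a direction. CDK1, the kinase of mitosis, had levels of 1.34 in crossbred and 0.92 in Zebu testis, a difference of 0.43. CDK2, which also acts at meiotic telomeres, differed by 0.32 and 0.40 at its overlapping probes, and CDK6 by 0.19. CDK4, the partner of the D-type cyclins, had levels of 0.61 and 1.51, and 3 of its probes differed by -0.90, -0.93 and -0.96. The fourth was well above background in Zebu testis only and was at least 2.59-fold lower in crossbred testis. CDK3, a kinase close to CDK2, had levels of 0.13 and 1.46, a difference of -1.33 at its only probe, the lowest of any member that both arrays detected. All probes of CDK4 and CDK3 were on the low side and all probes of CDK1, CDK2 and CDK6 on the high side.

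**Figure D2:**
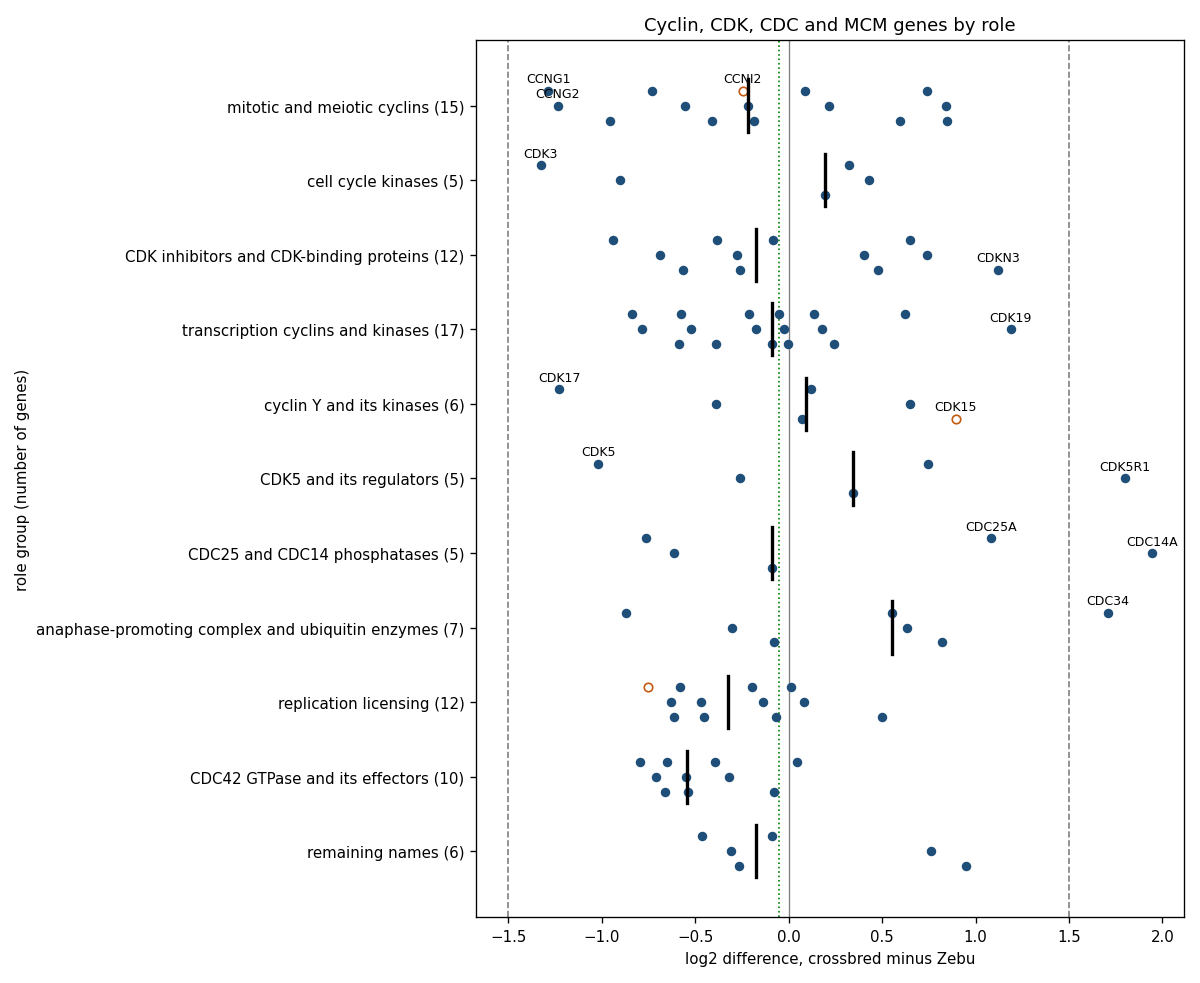
Difference in level (x, log2, crossbred minus Zebu) of each of the 100 genes, grouped by role (y, number of genes in brackets). Filled points were well above background on both arrays, open points on 1 array and are drawn at their bound, black bars are group medians, the dotted line is the median of all detected names at -0.05 and the dashed lines are 1.5 in size. The CDC42 group and the replication licensing group lie mostly below 0, and 3 filled points pass the upper dashed line.

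The CDK inhibitors and CDK-binding proteins were split, with 5 of 12 above 0. CDKN3, a phosphatase that acts on CDK2, was the highest, with levels of 4.40 in crossbred and 3.28 in Zebu testis, a difference of 1.12. Its second probe differed by 1.74, past the threshold. CDKN1C differed by 0.74, CDKN2D by 0.65 and CDKN2C by 0.40 and 0.57. CDKN1B, the inhibitor of cyclin E and CDK2 complexes, was on the low side, with processed signals of 2526 in crossbred and 5087 in Zebu testis, which is -0.94, and with -1.53 at its second probe. For CDKN1A, an inhibitor of several cyclin and CDK complexes, the brighter probe differed by -0.09 and the dimmer one by 1.39. The median of the group was -0.17 by the brightest probe and 0.33 over the mean of all probes, so it has no settled direction.

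Among the phosphatases, CDC25A differed in 1 direction at each probe, with levels of -1.67 in crossbred and -2.76 in Zebu testis and differences of 1.08, 0.88 and 1.36. Probes 2 and 3 of CDC25A, at chr22:52948089-52948148 and chr22:52948084-52948143 on the plus strand, are offset by 5 bases and share 55 bases, shown here in capitals. They show how far almost the same sequence can differ on the same arrays, here by 0.48 at levels of -4.08 and -4.19 in crossbred testis.
CDC25A probe 2: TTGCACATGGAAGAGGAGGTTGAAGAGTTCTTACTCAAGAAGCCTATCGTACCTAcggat
CDC25A probe 3: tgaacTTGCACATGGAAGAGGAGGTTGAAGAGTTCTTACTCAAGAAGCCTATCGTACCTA
Among all these genes 6 pairs of probes, in 5 genes, shared an identical run of 30 bases or more at their ends. The others of these pairs differed by 0.03 for CDK4, 0.17 and 0.49 for MCM4, 0.24 for CDK5RAP3 and 0.32 for CDC20. The probes of CDK2 and those of CCNB1 also overlap by position, but had no such identical run and are not in this count.

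CDC25B had levels of -0.52 in crossbred and 0.24 in Zebu testis, with differences of -0.76, -0.79 and -0.18 at its 3 detected probes, and CDC14B differed by -0.09 and -0.74. For CDC25C, the phosphatase that activates CDK1, the brighter probe differed by -0.61 and the dimmer one by 0.89. The 5 phosphatases had a median of -0.09 by the brightest probe and 0.14 over the mean of all probes.

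In the group of the anaphase-promoting complex and ubiquitin enzymes the median was 0.55 over 7 genes, of which 4 lay above 0. CDC20, the activator of the complex in mitosis, had levels of 2.23 in crossbred and 1.68 in Zebu testis and differed by 0.55, 0.17 and 0.49 at its probes. CDC26, a small subunit, differed by 0.63, and CDC20B by 0.82 near background. The core subunits CDC16, CDC23 and CDC27 lay below 0 at their brightest probes, with -0.30, -0.87 and -0.08. CDC23 had -0.84 at its second probe as well, while the other two had probes on both sides of 0.

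The replication licensing genes lay low but by little. Of 12 genes, 9 were below 0, with a median of -0.32. MCM3AP, named after MCM3, was counted among the 12, at -0.58. Of the helicase subunits, MCM3 had levels of 0.32 in crossbred and 0.93 in Zebu testis and differed by -0.61, -0.65 and -0.33 at its probes on chromosome 23. A further probe listed as MCM3 lies on chromosome 9 and was well above background in Zebu testis only. MCM5 had levels of 3.18 and 3.65 and differed by -0.47, -0.42 and -0.45. Those 2 subunits were on the low side at each of these probes. MCM4, with 5 probes, differed by between -0.46 and 0.03, MCM6 by -0.07, and MCM7 by -0.20 and -0.51. CDC6, the loading factor, differed by -0.45 at its only probe and CDC7, the kinase that fires origins, by -0.63 and -0.49. MCM8, a helicase of meiotic recombination, was the highest of the group at 0.50, and MCM9 was well above background in Zebu testis only and at least 1.69-fold lower in crossbred testis. None of these 12 genes was counted as higher or lower, where 7.12% and 2.92% of all detected names were.

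CDC42 and its effectors had 9 of 10 genes below 0 and a median of -0.54, the lowest of the role groups when each gene was read from its brightest probe. Over the mean of all probes the median was -0.38, and replication licensing was then lower, at -0.40. CDC42 itself had levels of 2.80 in crossbred and 3.35 in Zebu testis and differed by -0.55 and -0.34 at its probes. CDC42EP1, an effector protein, was the lowest at -0.79, and CDC42EP4 differed by between -0.71 and -0.18 over its 4 probes. CDC42BPA, a kinase bound by CDC42, was the 1 gene above 0, at 0.04. The array lists 6 probes under this name at 2 loci, and the 4 on chromosome 16 differed by between -0.76 and 0.77, while the 2 on chromosome 8 differed by 0.88 and 0.73. These genes share the letters of their name with the division genes but act on the cytoskeleton. None of them was counted as lower, where 2.92% of all detected names were.

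The 17 genes grouped as cyclins and kinases of transcription had a median of -0.09, with 12 below 0 and 9 within the SD between spots. CDK20, at -0.05, was placed among them. CDK19, a kinase of the Mediator complex, was the highest, with levels of -2.81 in crossbred and -3.99 in Zebu testis, a difference of 1.19. With normexp background correction it was 0.76. CDK9, the elongation kinase, differed by -0.58, -0.60 and -0.51 at its probes, and CCNL1 and CCNL2, cyclins of RNA splicing, by -0.84 and -0.78 at their brighter probes. CDC2L1 is the gene now named CDK11B, and its probes on chromosome 16 differed by -0.59 and -0.26. Whether these probes also read a near-identical copy was not tested.

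For CDK7, the kinase of the general transcription factor TFIIH, 2 probes differed by 0.18 and 0.24. Probe 3 lies in rows 54 to 99 and columns 35 to 46, a dark patch where crossbred spots read low. Its processed signal was 4.65 for crossbred against 1227 for Zebu testis, at least 54.6-fold lower, and without it the CDK7 probes stood within 0.24 of 0. Probes of CDC42SE1 and CDK5RAP3 also lie in that patch, and no member lies in the second marked place, a small bright patch. CDC42SE1 differed by 0.15 at the probe inside and by -0.66 at the one outside. CDK5RAP3 differed by 0.51 at the probe inside and by 0.74 at a probe outside with which it shares 57 bases. All 3 genes were read from a probe outside the patch.

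Cyclin Y, a membrane-bound cyclin, and its kinases had a median of 0.09 over 6 genes. CCNY had levels of 5.31 in crossbred and 4.66 in Zebu testis and differed by 0.65 and 0.60 at its probes. CDK16, a kinase activated by cyclin Y and needed for sperm formation in mice, differed by -0.39 at its brighter and 1.02 at its dimmer probe. CDK17 was the 1 member whose probes passed 1 in opposite directions. It had levels of 0.00 in crossbred and 1.23 in Zebu testis at probe 1, a difference of -1.23, and levels of -4.40 and -5.63 at probe 2, a difference of 1.23. Over all gene names 77 were opposed in this way.

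Of the CDK5 genes, CDK5, a kinase best known from neurons, differed by -1.02, with levels of -3.28 in crossbred and -2.26 in Zebu testis, while its activator CDK5R1 differed by 1.80 in the other direction. CDK5RAP2, a centrosomal protein, had 0.34, 0.12 and 0.70 at its probes. The remaining names gave 0.95 for CCNB1IP1, a meiotic crossover factor, and 0.76 and 0.49 for the probes of CDC5L, a splicing factor. CDC37, a co-chaperone of kinases, differed by -0.27 at its brightest probe and by 0.92 and 0.84 at the other two that were detected.

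**Figure D3:**
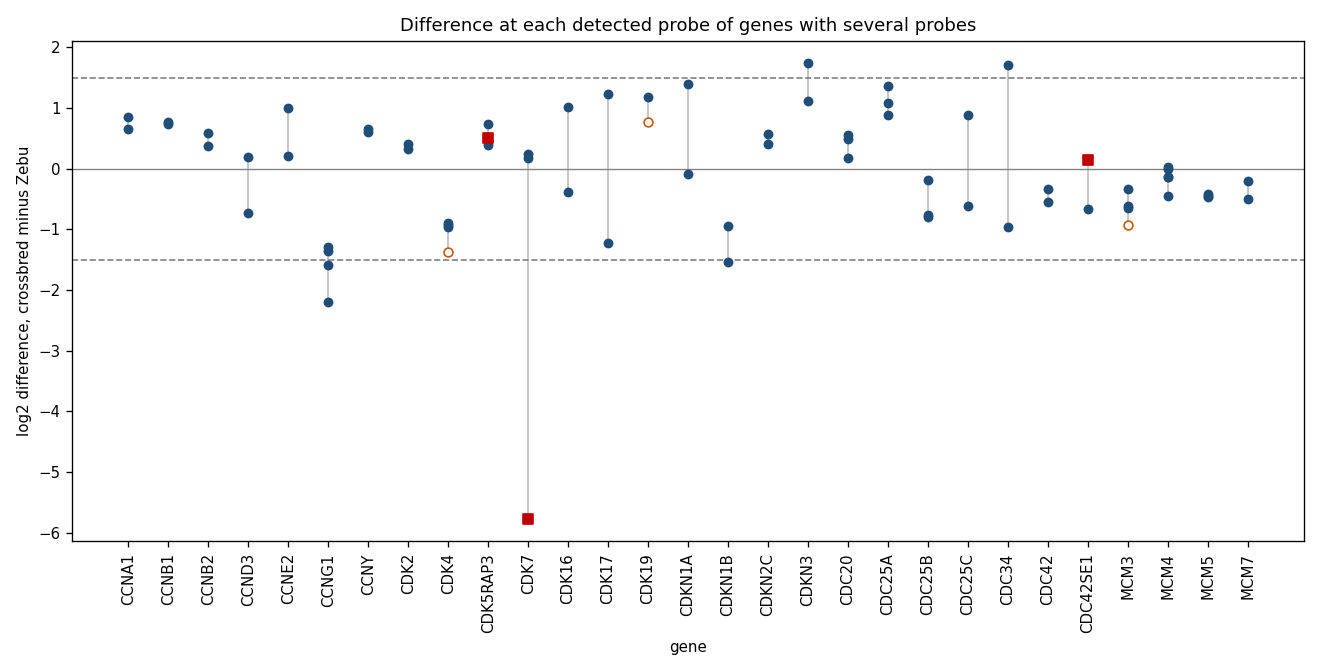
Difference in level (y, log2, crossbred minus Zebu) at each detected probe of 29 genes with several probes (x). Filled points were well above background on both arrays, open points on 1 array and are drawn at their bound, red squares lie in the dark patch, and dashed lines are 1.5 in size. The 4 probes of CCNG1 lie together below -1, the probes of CDC34 and CDK17 lie on opposite sides of 0, and the CDK7 probe in the dark patch lies apart at -5.77.

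Among the 70 members with 2 or more detected probes, all probes agreed in sign for 44, or 62.9%, against 66.1% of the 8959 such names on the array. They were all above 0 for 16 genes and all below 0 for 28, against 2518 and 3401 of those 8959 names. The lowest and highest probe lay within 0.5 of each other for 42 of the 70 and for 5015 of those 8959 names. The 208 detected probes showed no steady relation with base composition, as the medians of 3 bands of 69 or 70 probes from low to high GC were -0.32, 0.00 and -0.09. For 3 bands from dim to bright by mean level they were -0.14, -0.14 and -0.09.

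Other cell cycle genes outside these names, such as the Polo-like and Aurora kinases, the spindle checkpoint, the origin recognition complex and the E2F factors, were read the same way. Of 74 listed genes, 69 were on the array by name and 67 were detected. None was counted as higher or lower, where 7.12% and 2.92% of all detected names were. The median was 0.09, and 36 lay above 0, which is 53.7% against 46.8% of all names. The highest were FZR1, the other activator of the anaphase-promoting complex, at 1.21, CDCA2 at 1.20 and TFDP2, a partner of E2F, at 1.11. The lowest by their brightest probes were the origin recognition subunits ORC2 and ORC6, both at -1.05. Their detected probes ranged from -1.05 to -0.17 for ORC2 and from -4.81 to -0.22 for ORC6. PLK3, at -0.41, had another probe at 2.14.

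Markers of testis cell types were read as a check of the tissue, and every marker with a probe of its name was detected on at least 1 array, such as the protamine PRM1 of spermatids at levels of 7.43 in crossbred and 7.07 in Zebu testis. All 13 spermatid markers lay above 0, with a median of 1.86 and 10 counted as higher, where 7.12% of all detected names were. All 7 spermatocyte markers lay above 0 as well, with a median of 0.41. Of the spermatogonial markers, 7 of 10 lay below 0, with a median of -0.66, and all 7 Sertoli cell, 6 Leydig cell and 5 peritubular markers lay below 0, with medians of -0.90, -0.79 and -0.77. Endothelial and macrophage markers had medians of 0.08 and 0.20. Outside the spermatid list, 2 of 6 Leydig cell markers (CYP17A1 and HSD3B1) and 1 of 10 spermatogonial markers (SALL4) were counted as lower. Of all detected names 2.92% were. In the macrophage list 1 of 5 markers, AIF1, was counted as higher. The part of these cell types in the differences of the cell cycle genes was not tested.

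**Figure D4:**
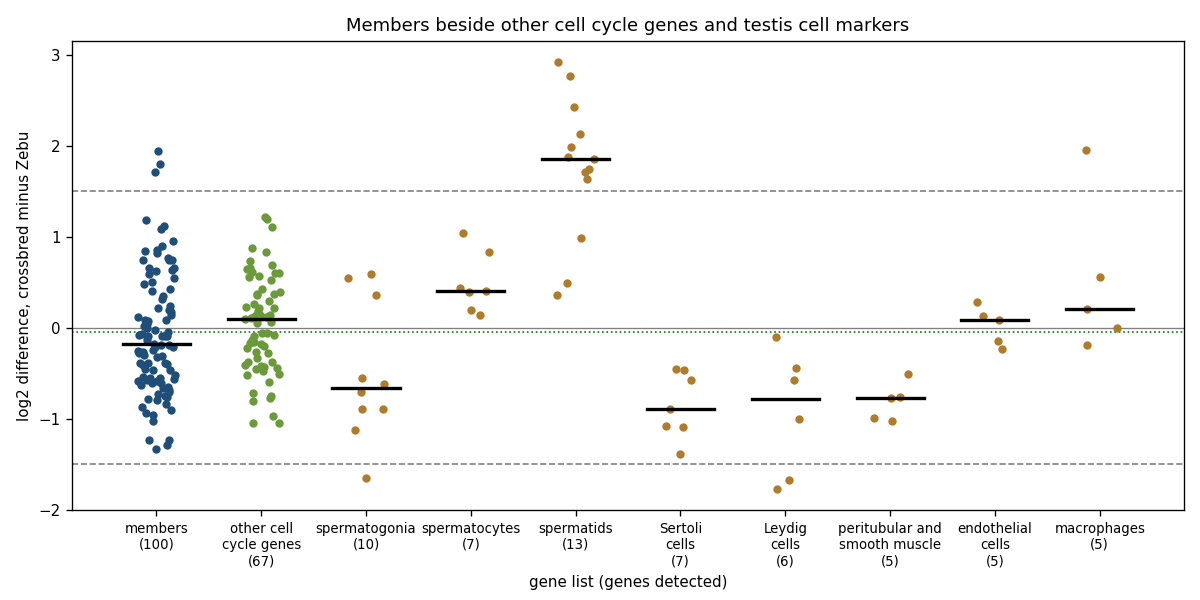
Difference in level (y, log2, crossbred minus Zebu) of each gene in the members, in the other cell cycle genes and in the marker lists of testis cell types (x, number of genes detected in brackets). Bars are medians, the dotted line is the median of all detected names at -0.05 and dashed lines are 1.5 in size. The members have a median of -0.18 and the other cell cycle genes 0.09, between the spermatid markers at 1.86 and the Sertoli cell markers at -0.90.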

How the data were processed

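Per the file headers, the authors deposited a processed signal per spot from Feature Extraction 11.5.1.1, an intensity corrected for background and for spatial trend and not yet scaled between arrays. They also deposited log2 values relative to the 75th percentile of each array, which served as an alternative. Controls and 13 outlier spots were removed, and none was saturated. Spots of a probe were averaged as log2 processed signal, and each array was scaled to its 75th percentile over non-control probes, a signal of 1176 for crossbred and 1233 for Zebu. The scanner software marked 72.0% and 74.3% of the non-control spots well above background.

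Genes named are the members counted as higher or lower, the 5 largest and 5 smallest differences among those well above background on both arrays, a list of core cyclins, kinases, inhibitors and licensing factors whatever their values, members with a spot in the dark or bright patch, and members whose probes were opposed past 1. Further members named within a role group were chosen after their values were seen. The members, the lists and the 2 patches were chosen with earlier results of these data known. The calling step was tested on simulated data. The tools were Python 3.11.15 (numpy 2.4.6, pandas 2.3.3, matplotlib 3.10.9) and, for normexp, limma 3.58.1 in R 4.3.3. Real-time PCR was not analysed here.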

Additional observations from a re-analysis of the deposited data

How the results depend on the processing

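The counts of 4 genes higher and 1 lower, the medians and 46 named genes were recomputed under normexp background correction, 3 other scalings, the authors' log2 values, the mean over all detected probes of a gene, only genes well above background on both arrays, without the spots in the 2 patches, and, chosen after seeing the data, with the probe of highest signal on either array. CDC14A and CDK5R1 were counted as higher under each of these. The count higher was 7 at a threshold of 1 and 1 at a threshold of 2, where 12.8% and 3.49% of all detected names were. The 1 gene at a threshold of 2 was CDK15, with a measured difference of 2.27 but a bound of only 1.86-fold. The count lower was 0 with normexp, with quantile normalization, with genes on both arrays only and at a threshold of 2. The shares of all detected names lower in these settings were 0.68%, 2.77%, 1.74% and 1.20%. With the mean over all probes the count lower was 3, where 2.98% of all names were. These were CCNG1, CCNI2 and CDK7, the last through its probe in the dark patch. At a threshold of 1 the count lower was 7, where 8.87% of all names were. With the mean over all probes the median of the members was -0.04, like that of all names, the median of the CDK inhibitors was 0.33 and that of the remaining names 0.23, both of which were below 0 by the brightest probe. No alternative moved the median of all detected names by more than 0.1. Of the 412 recomputed values of named genes, 398 stayed within the SD between spots of the main value and 14 moved further, 10 of them with the mean over all probes and 4 with normexp (CCNG2, CCNI2, CDK15 and CDK19). No value of a counted gene changed sign. Some named genes that were not counted did, such as CDC25C, at -0.61 by its brightest probe and 0.14 with the mean over all probes. No paired analysis was possible because each group has 1 array. Dim probes limit the folds of CDK15, CCNI2 and MCM9 to bounds.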
